A study of Mus musculus with 4 samples.

Results

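MHC class I antigen presentation was followed through 10 genes: B2m, H2-K1, H2-D1, Tap1, Tap2, Tapbp, Erap1, Psmb8, Psmb9 and Nlrc5. They were taken by gene symbol from the annotation of the array, in which 9 of the 10 had a probe set (a group of probes read as 1 value) of their own, among 22180 genes with one. H2-D1 was represented only by a probe set that also lists H2-Q2, and it is given apart. All values are log2 expression, normalised by RMA, with 1 array per culture and no replicates of any condition.

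Of the 4 cultures, 2 were reprogrammable mouse embryonic fibroblasts (repMEFs, fibroblasts in which doxycycline switches on reprogramming factors) taken in bulk at day 6 of doxycycline, the first with knockdown of Firefly, a luciferase gene that mouse cells lack and hence the control, and the second with knockdown of Sumo2, a small ubiquitin-like modifier. The other two were induced pluripotent stem cells (iPSC) from fibroblasts with Sumo2 knockdown, described as stable clones and named 38 h and 10 day. From which event that time runs, and whether an array holds 1 clone or several, is not stated. All 4 carry the strain label Black6-129X1/SvJ, the sex label of a male and female pool, and the same treatment with ascorbic acid and doxycycline in a serum-containing medium for embryonic stem cells. No iPSC line from control fibroblasts was analysed here, so the knockdown and the cell state cannot be told apart for the lines. The Sumo2 transcript read 10.65 in the Firefly culture and 10.56 in the other day 6 culture, so the second is called the culture labelled Sumo2 knockdown, or the Sumo2-labelled culture, and Sumo2 in lists of values names its array. Between genes, array levels cannot be compared, so each gene is compared only with itself across arrays.

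MHC class I molecules show peptides from inside the cell to CD8 T cells. Proteasomes and cytosolic peptidases make the peptides, the TAP transporter carries them into the endoplasmic reticulum, where they are trimmed and loaded onto a heavy chain paired with beta-2 microglobulin. Interferon gamma raises most genes of the pathway, through STAT and IRF factors and through NLRC5, and mouse pluripotent cells are known for low class I at their surface. The genes H2-K1, H2-D1, Tap1, Tap2, Tapbp, Psmb8 and Psmb9 lie on chromosome 17 in the MHC, B2m on chromosome 2, Nlrc5 on chromosome 8 and Erap1 on chromosome 13. In the RefSeq order of protein-coding genes (assembly GRCm38.p6), Psmb9, Tap1, Psmb8 and Tap2 follow one another without another such gene between them, flanked by the class II genes H2-DMb1 and H2-Ob.

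Promoters are shown for 4 of the genes, taken by the outcome of the test. B2m, Tap1 and Erap1 were lower in the iPSC lines, and H2-K1 did not pass the test. Whether the differences of these genes differ from one another was not tested. Each run is 300 bases from RefSeq, build GRCm38.p6, from 250 bases before the annotated start to 50 after it, 5′ to 3′ on the strand of the gene. B2m lies at chr2:122147437-122147736 on the plus strand, H2-K1 at chr17:34000298-34000597 on the minus strand (the first of 2 annotated starts), Tap1 at chr17:34187306-34187605 on the plus strand and Erap1 at chr13:74639603-74639902 on the plus strand. Capitals mark any match, on either strand, to 5 motifs: the interferon response element core GAAANNGAAA, the interferon gamma activated site TTCNNNGAA, the CCAAT box CCAAT, the NF-kB site GGGGATTCC and the cyclic AMP response element half-site TGACG.
B2m: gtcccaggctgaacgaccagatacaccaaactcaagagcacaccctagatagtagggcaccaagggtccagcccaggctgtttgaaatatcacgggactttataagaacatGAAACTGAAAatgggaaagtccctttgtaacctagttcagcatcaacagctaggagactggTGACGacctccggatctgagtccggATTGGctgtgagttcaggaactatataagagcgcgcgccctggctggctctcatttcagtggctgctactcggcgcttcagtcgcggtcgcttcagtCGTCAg
H2-K1: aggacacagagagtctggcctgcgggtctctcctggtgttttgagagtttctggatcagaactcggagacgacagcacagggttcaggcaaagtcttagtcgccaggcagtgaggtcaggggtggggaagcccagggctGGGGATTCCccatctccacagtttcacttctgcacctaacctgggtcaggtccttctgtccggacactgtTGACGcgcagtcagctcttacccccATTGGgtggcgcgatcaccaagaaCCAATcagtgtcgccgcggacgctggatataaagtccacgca
Tap1: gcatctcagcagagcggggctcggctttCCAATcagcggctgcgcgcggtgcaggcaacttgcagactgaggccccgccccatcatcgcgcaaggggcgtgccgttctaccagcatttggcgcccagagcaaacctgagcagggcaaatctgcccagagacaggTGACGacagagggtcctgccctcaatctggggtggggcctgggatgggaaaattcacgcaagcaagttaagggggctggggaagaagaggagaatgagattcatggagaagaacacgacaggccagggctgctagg
Erap1: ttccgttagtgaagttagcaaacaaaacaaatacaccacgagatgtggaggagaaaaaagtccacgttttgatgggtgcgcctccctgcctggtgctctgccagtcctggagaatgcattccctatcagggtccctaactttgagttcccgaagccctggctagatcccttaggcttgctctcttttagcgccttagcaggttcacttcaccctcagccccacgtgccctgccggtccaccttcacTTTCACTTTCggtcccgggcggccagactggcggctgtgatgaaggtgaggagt

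RefSeq promoters were found for 8 of the 10 genes, all but Tap2 and Nlrc5. The interferon response element core was found in B2m, beginning 139 bases before the start, and in Erap1, 4 bases before it, and in 3.44% of all 32851 promoter windows of the same length. The NF-kB letters were in H2-K1 and H2-D1, against 0.25% of all windows. The CCAAT box was in 6 of the 8 (37.4% of all windows), the response element half-site in 5 (20.8%), and the interferon gamma site in Psmb8 alone (8.3%). In B2m the half-site lay 78 bases and the CCAAT box, on the opposite strand, 53 bases before the start, and in H2-K1 they lay 41 and 16 bases before it. The first bases of the pair are 25 bases apart in both promoters, and in that of H2-D1 as well, an arrangement with 20 bases between the matches that 31 of all windows (0.0944%) held on either strand. Class I promoters are known for paired elements, the X and Y boxes, at which RFX and NF-Y proteins assemble and to which NLRC5 is recruited. None of the 5 motifs is an RFX site, and the half-site letters are those of a cyclic AMP response element. The spacing was searched for after the single matches had been seen. The Tap1 window overlaps that of Psmb9, which runs the other way, by 275 bases, so matches there belong to both. A match is a description of letters and not a binding site.

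**Figure D1:**
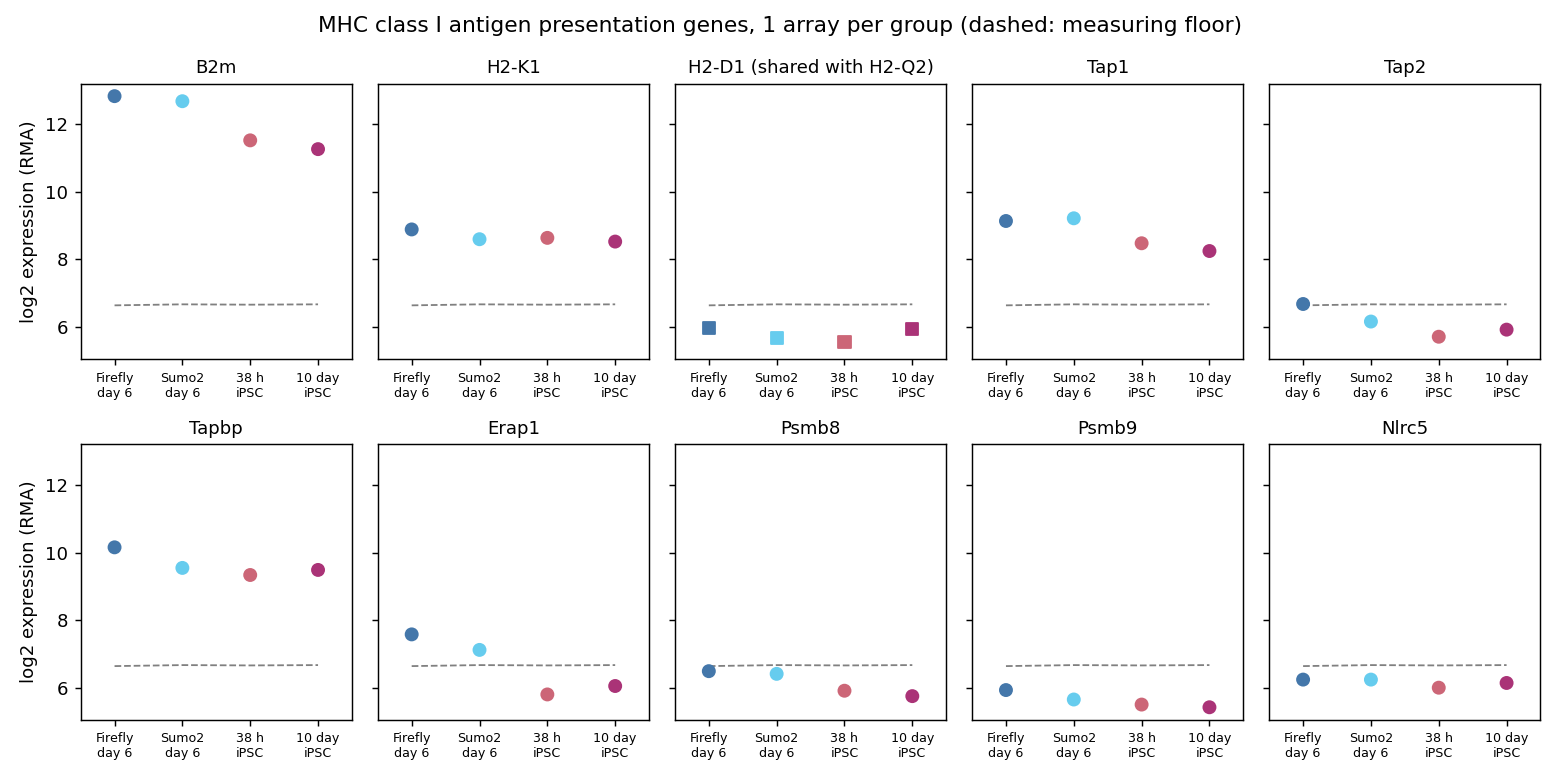
Log2 RMA expression (vertical axis) of the 10 genes on the 4 arrays (horizontal axis), 1 point per array, with squares for the probe set that H2-D1 shares with H2-Q2 and a dashed line for the measuring floor, the median of all probe sets with 1 gene symbol. B2m, Tap1 and Erap1 step down from the day 6 cultures to the iPSC lines, H2-K1 stays between 8.53 and 8.89, and H2-D1, Psmb8, Psmb9 and Nlrc5 lie under the floor on every array.

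The first comparison asked how class I genes in the iPSC lines stood against the day 6 cultures. B2m, Tap1 and Erap1 fell, by 2.58-fold, 1.76-fold and, counted from the measuring floor, at least 1.61-fold, whereas the heavy chain gene H2-K1 and the loading chaperone gene Tapbp did not pass the test. The floor is the median of all single-symbol probe sets, 6.64 to 6.67 on the 4 arrays, and a gene was tested when it reached the floor on at least 1 array. Of the 9 genes with a probe set of their own, 6 were tested (B2m, H2-K1, Tap1, Tap2, Tapbp and Erap1). The test was limma over all 12735 such genes, 2 iPSC against 2 day 6 arrays, and fell or rose stands for a Benjamini-Hochberg adjusted p under 0.05. The spread within each pair holds the knockdown and the difference between lines, so these are not replicates of 1 condition. The error of every value below is of that kind. By moderation, limma draws the error of each gene towards that of genes of similar intensity, so it is not that gene's spread alone.

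B2m encodes beta-2 microglobulin, the light chain that every class I molecule needs. Its log2 expression was 12.84 in the Firefly culture, 12.69 in the culture labelled Sumo2 knockdown, 11.53 in the 38 h line and 11.27 in the 10 day line. Both iPSC values lay below both day 6 values. The difference was -1.37 (SE 0.11, 95% interval -1.64 to -1.09, limma adjusted p = 0.000525), which left 38.8% of the day 6 level. In a bulk culture, fewer cells that make a transcript and less transcript per cell cannot be told apart.

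H2-K1 encodes a classical heavy chain, the part of the molecule that holds the peptide. It read 8.89 and 8.60 in the Firefly and Sumo2-labelled cultures and 8.64 and 8.53 in the 38 h and 10 day lines. The groups overlapped, since the 38 h line lay above the Sumo2-labelled culture. The difference of -0.16 did not pass (SE 0.18, 95% interval -0.59 to 0.27, limma adjusted p = 0.48), an interval that does not reach the size seen for B2m. Heavy chain genes are near-identical copies of one another, so which copies this probe set reads is uncertain. The probe set listing H2-D1 with H2-Q2 read 5.96, 5.66, 5.55 and 5.93 in the order Firefly, Sumo2, 38 h and 10 day, under the floor on all 4 arrays, so it gives no level for H2-D1, another classical heavy chain gene.

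Tap1 and Tap2 encode the paired subunits of the peptide transporter. Tap1 read 9.14 and 9.22 at day 6 and 8.48 and 8.25 in the 38 h and 10 day lines, with no overlap. It fell by 0.81 on the log2 scale (SE 0.17, 95% interval -1.22 to -0.40, limma adjusted p = 0.0101). With 1 day 6 array left out the same difference no longer passed, at adjusted p = 0.0563 without the Firefly array and 0.0548 without the Sumo2 array. Tap2 read 6.68 in the Firefly culture, just above the floor, and 6.16, 5.71 and 5.92 in the Sumo2, 38 h and 10 day cultures, all under it. Its difference as read, -0.60 (SE 0.27, 95% interval -1.25 to 0.04, limma adjusted p = 0.106), did not pass and shrank to -0.01 when counted from the floor.

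Tapbp encodes tapasin, which bridges the transporter and the empty heavy chain. Its brighter probe set read 10.16 in the Firefly culture and 9.55, 9.34 and 9.49 in the Sumo2, 38 h and 10 day cultures, so that the Firefly culture stood apart and the culture labelled Sumo2 knockdown lay beside the iPSC lines. The difference of -0.44 did not pass (SE 0.23, 95% interval -0.99 to 0.11, limma adjusted p = 0.157). It was -0.14 without the Firefly array (adjusted p = 0.606) and -0.74 without the Sumo2 array (adjusted p = 0.0398), so 1 day 6 array decides its size. A second Tapbp probe set read 7.53, 7.16, 6.58 and 7.18 in the order Firefly, Sumo2, 38 h and 10 day, and one shared with Zbtb22 read 7.49, 7.34, 7.12 and 7.06. On both of these, too, the Firefly culture was the highest.

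Erap1 encodes the aminopeptidase that trims peptides in the endoplasmic reticulum. It read 7.58 and 7.12 at day 6 and 5.80 and 6.05 in the 38 h and 10 day lines, both of which lay under the floor. As read it fell by 1.43 on the log2 scale (SE 0.24, 95% interval -2.0 to -0.85, limma adjusted p = 0.00456). Counted from the floor the difference was -0.69 (limma adjusted p = 0.0286), which is the lower bound of 1.61-fold. The gene was tested only because its day 6 values reached the floor.

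Psmb8 and Psmb9 encode catalytic subunits of the immunoproteasome, and Nlrc5 the activator of class I promoters. All 3 lay under the floor on every array. Psmb8 read 6.49, 6.41, 5.91 and 5.75, Psmb9 5.93, 5.65, 5.50 and 5.42, and Nlrc5 6.24, 6.24, 6.00 and 6.14, each in the order Firefly, Sumo2, 38 h and 10 day. Readings under the floor are not taken as levels here. When every gene was tested, without the floor, the difference of Psmb8 (-0.62, SE 0.15) passed at limma adjusted p = 0.0251, while Psmb9 (-0.33, adjusted p = 0.148) and Nlrc5 (-0.17, adjusted p = 0.412) did not.

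In all, 3 of the 6 tested members fell and 0 rose, also at an unadjusted p under 0.05, and 2 of them, B2m and Erap1, fell at least 2-fold as read. Over all tested genes 17.8% fell, 29.0% rose and 9.12% fell at least 2-fold. The members were chosen with earlier results of these data known, so these shares describe them and are not a test. Both iPSC values lay below both day 6 values for 5 of the 6, all but H2-K1, against 32.7% of all tested genes. The median difference of the 6 was -0.71, against 0.15 over all tested genes, and Tap2 and Erap1 entered the test only through day 6 values, Tap2 through the Firefly array alone, so the choice of tested genes favours a lower iPSC value for them. Cyclic loess scaling moved the median of all genes by -0.13, to 0.03, and gave B2m -1.49, Tap1 -1.0, Erap1 -1.39, Tapbp -0.63 and H2-K1 -0.35, with the same 3 genes past the threshold.

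**Figure D2:**
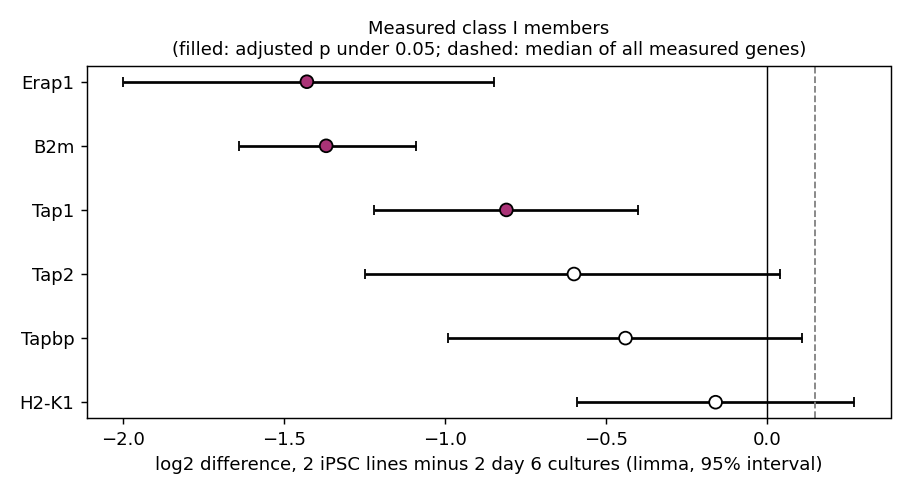
Log2 difference of the 2 iPSC lines from the 2 day 6 cultures (horizontal axis) for the 6 tested members (vertical axis), with limma 95% intervals; filled points passed at adjusted p under 0.05 and the dashed line is the median of all tested genes, 0.15. The intervals of B2m, Tap1 and Erap1 lie wholly below 0, and those of Tap2, Tapbp and H2-K1 reach past it.

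Markers of cell type moved with this contrast. Of 10 fibroblast markers 5 fell and 1 rose (Fbln2, which did not pass after cyclic loess), and the median level of the list was 10.48, 9.90, 9.30 and 8.94 in the order Firefly, Sumo2, 38 h and 10 day. Thy1, a fibroblast surface marker, read 11.71, 11.23, 8.85 and 8.69, above the floor in both lines. Of 10 pluripotency markers all 9 tested rose, and Dppa5a was under the floor throughout; list medians were 6.34, 6.99, 9.95 and 10.36. Of 6 epithelial markers 4 rose (Cdh1, Epcam, Cldn4 and Cldn6, by 2.11 to 2.67 on the log2 scale; 3 after cyclic loess) and the median difference was 2.15. Of 6 endothelial markers 4 were tested, of which Pecam1 rose by 3.38, Tek fell by 2.44 and the other two did not pass. Blood cells carry much class I. The pan-leukocyte marker Ptprc lay under the floor on all 4 arrays, at 4.98 to 5.25, and all 5 dendritic cell markers lay under it too. Reaching the floor on some array were 4 of 10 blood and macrophage markers (Cd68, Lyz2, Itgam and Fcer1g), 3 of which rose and 1, Itgam, fell. Itgam reached it on the Firefly array alone, and its difference was -0.94 as read and -0.15 from the floor. Fcer1g reached it only in the iPSC lines, with a difference of 0.67 as read (limma adjusted p = 0.0499) and 0.37 from the floor. Of 8 lymphocyte and natural killer markers, Cd3e and Cd79a rose and the rest did not pass or lay under the floor. Cd79a read 5.21, 5.70, 6.69 and 6.83 in the order Firefly, Sumo2, 38 h and 10 day, and was tested only through the lines. Its difference was 1.31 as read and 0.10 from the floor. The part of cell composition in the class I differences was not tested.

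The related genes are given list by list, and each list's counts stand beside the 17.8% of all tested genes that fell and the 29.0% that rose. Of 5 cytosolic peptidases 4 rose and 0 fell, also at an unadjusted p under 0.05: Blmh (0.62), Lap3 (0.60), Tpp2 (0.57) and Npepps (0.51), each by limma adjusted p between 0.00719 and 0.0242, while Thop1 stood at 0.42 (adjusted p = 0.1). After cyclic loess 2 of the 5 rose, with a list median of 0.40 in place of 0.57. The list of constitutive proteasome genes holds subunits that immunoproteasome subunits replace, and Psme3. Psmb6, the counterpart of Psmb9, rose by 0.79 (SE 0.17, adjusted p = 0.011), and Psmb5, the counterpart of Psmb8, stood at 0.13 (adjusted p = 0.298). The other 2 genes of that list, Psmb7 (-0.23) and the proteasome activator gene Psme3 (0.11), did not pass either, and Psme3 changed sign after cyclic loess.

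Psmb10, the third immunoproteasome subunit, and the proteasome activator genes Psme1 and Psme2 were above the floor on every array. Psmb10 read 9.04, 8.77, 8.70 and 8.24 in the order Firefly, Sumo2, 38 h and 10 day. None of the 3 passed the limma test, also at an unadjusted p under 0.05 (differences of -0.44 for Psmb10, -0.21 for Psme2 and 0.07 for Psme1, the last of which turned negative after cyclic loess).

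Among 8 loading and folding genes of the endoplasmic reticulum, 2 fell and 1 rose. Tapbpl, a tapasin relative that edits peptides, read 7.24 and 6.95 at day 6 and 5.99 and 5.81 in the lines, under the floor. It fell at least 1.35-fold, and as read by 1.19 on the log2 scale (limma SE 0.22, adjusted p = 0.00621). Pdia3, the disulphide isomerase of the loading complex, fell by 0.38 (SE 0.10, adjusted p = 0.0193), and Uggt1, a glycoprotein folding sensor, rose by 0.55 (SE 0.15, adjusted p = 0.027), a call not made after cyclic loess. The chaperone genes Calr (0.19) and Canx (0.12) did not pass.

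Of the other class I heavy chain genes and relatives, 27 were listed, 19 had a probe set of their own and 8 were tested. H2-Q10 fell at least 2.31-fold (-1.85 as read, SE 0.27, with limma adjusted p = 0.00305), from 8.25 and 7.50 at day 6 to 6.04 and 6.01, under the floor, and Mr1, which presents vitamin metabolites, fell by 1.25 as read (SE 0.30, adjusted p = 0.0158), from 7.99 and 7.38 to 6.75 and 6.13, the last under the floor. H2-M5 rose by 1.16 (SE 0.20, adjusted p = 0.00488). Fcgrt, a class I relative that binds IgG, did not pass (-0.68, adjusted p = 0.191), nor did H2-K2, H2-Q1, H2-Q4 and H2-M3, whose differences ran from -0.14 to 0.32. Apart from the relatives Mr1 and Fcgrt, these probe sets may read each other's transcripts.

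Of 16 IRF, NF-kB, RFX, CREB and NF-Y genes, families whose members act on class I promoters, 4 fell and 2 rose, and the median difference was 0.06 against 0.15 over all tested genes. Irf2, which encodes an interferon regulatory factor, read 9.33 and 9.13 at day 6 and 6.05 and 6.19 in the 38 h and 10 day lines, so it was under the floor in both lines. It fell at least 5.93-fold, with a log2 difference as read of -3.11 (limma SE 0.17, adjusted p = 0.000176), the largest drop among the tested genes of the 10 pathway lists. Rela, the transactivating NF-kB subunit, read 11.07 and 11.05 against 10.04 and 9.81 and fell by 1.14 (SE 0.14, adjusted p = 0.00176), and Nfkb2, another subunit, fell by 0.76 (SE 0.21, adjusted p = 0.0263). Nfyb, a subunit of the CCAAT box factor NF-Y, read 7.75, 8.34, 9.72 and 10.10 and rose by 1.86 (SE 0.25, adjusted p = 0.00218). Irf7 and Irf8, of the same family as Irf2, passed close to both the threshold and the floor. As read, Irf7 stood at -0.59 (limma adjusted p = 0.0487) and Irf8 at 1.04 (adjusted p = 0.0468). Counted from the floor, the differences were -0.12 for Irf7 and 0.41 for Irf8. Irf1 (0.54, adjusted p = 0.0674) and Rfx5 (-0.48, adjusted p = 0.0807) did not pass.

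Of 10 interferon receptor and signalling genes 2 fell and 1 rose. Jak2, a kinase of the interferon gamma receptor, fell by 0.80 (SE 0.20, limma adjusted p = 0.0193), Ifnar2, a chain of the type I receptor, fell by 0.64 (SE 0.16, adjusted p = 0.0176), and Stat2, a transducer of type I signals, rose by 1.31 (SE 0.17, adjusted p = 0.00198). Of 21 interferon-induced genes listed, 19 had a probe set and 13 of those were under the floor on all 4 arrays, among them Isg15, at 4.85 to 5.27, and Mx1, at 4.25 to 4.57. Of the 6 tested, Ifi35 fell by 1.12 (SE 0.21, adjusted p = 0.00642) and 0 rose. At an unadjusted p under 0.05 Irgm2 would pass as lower too (-0.88, adjusted p = 0.0619) and still 0 rose. Most of the list thus lay under the floor in all the cultures, where readings are not taken as levels.

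Ligands of natural killer cell receptors were tested for 4 of the 12 genes listed. Pvr read 9.81, 9.47, 11.33 and 11.59 in the order Firefly, Sumo2, 38 h and 10 day and rose by 1.82 (SE 0.17, limma adjusted p = 0.000755). Its relative Nectin2 rose by 0.85 (SE 0.17, adjusted p = 0.00853) and the stress ligand gene Ulbp1 by 0.72 (SE 0.19, adjusted p = 0.0233). Clec2d, a ligand of an inhibitory receptor, read 7.96 in the Firefly culture and lay under the floor in the other cultures, at 6.59, 5.22 and 5.58. It was thus tested through 1 array alone, and its difference was -1.87 as read (adjusted p = 0.0158) and -0.65 from the floor. Of 10 class II genes with a probe set 3 were tested and 0 passed limma, also at an unadjusted p under 0.05.

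**Figure D3:**
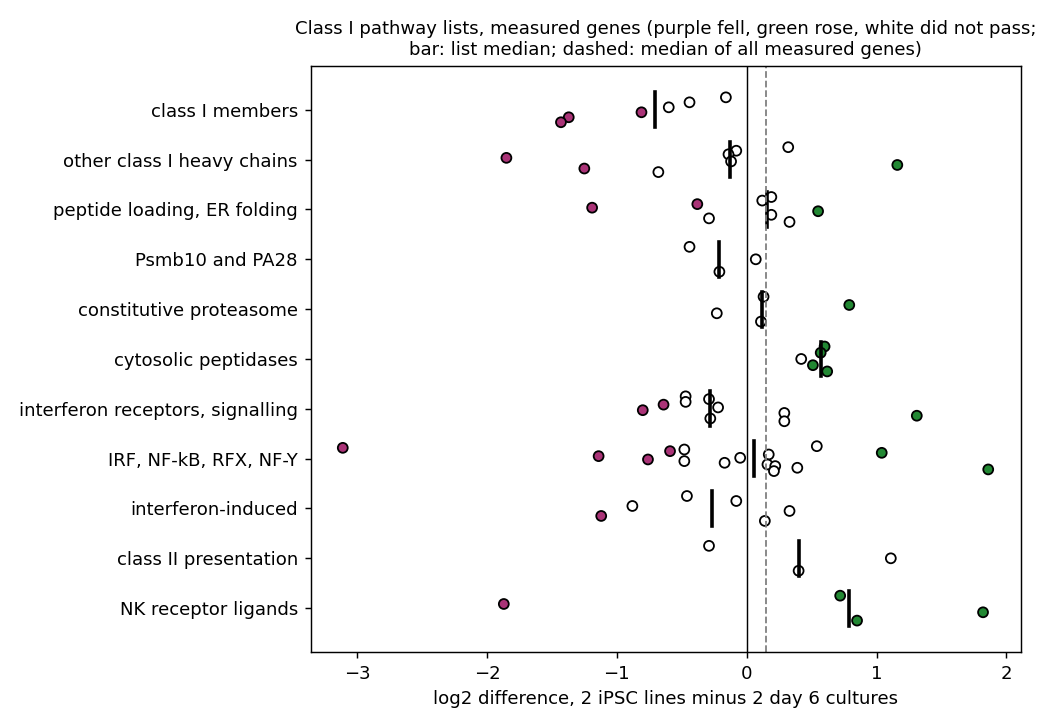
Log2 difference of the 2 iPSC lines from the 2 day 6 cultures (horizontal axis) for each tested gene of the class I members and 10 lists of related genes (vertical axis); purple genes fell, green genes rose, white genes did not pass, black bars are list medians and the dashed line is the median of all tested genes. The members have the lowest median as read, -0.71, with Tap2 and Erap1 tested only through day 6 values. Members and lists were chosen with earlier results of these data known, so this rank is a description and not a test. With values below the floor set to it, the median of the members was -0.56, against 0.13 over all tested genes. Medians of the other lists under that rule are not given. The cytosolic peptidases lie between 0.42 and 0.62, and Irf2 stands at -3.11.

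The second comparison set the culture labelled Sumo2 knockdown against the Firefly control at day 6, with 1 array each and hence no test. Class I genes were mostly a little lower in it. By its brighter probe set, Tapbp was the lowest relative to the control, at 66% of it (10.16 against 9.55). Erap1 followed at 72.7% (7.58 against 7.12), H2-K1 at 81.9% (8.89 against 8.60) and B2m at 90.3% (12.84 against 12.69). Tap1 was at 106%. Tap2 was at 69.9% as read, but its value in the Sumo2-labelled culture lay below the floor, and from the floor the log2 difference was -0.01.

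Of the 6 members that reached the floor at day 6, 5 were lower, against 46.3% of 11740 measured genes, and their median log2 difference was -0.37 against 0.02. Tap2 reached the floor only on the Firefly array, so the choice of measured genes favoured a lower value for it. With values below the floor set to it, the median of the members was -0.22, against 0.02 over all measured genes. At least 1.5-fold lower was 1 member, Tapbp, against 2.81% of genes, and 0 members were 2-fold lower, against 0.230%. The log2 differences of all measured genes had an SD of 0.33, and B2m (-0.15), Tap1 (0.08) and H2-K1 (-0.29) lay within it. For Tapbp, 2.51% of measured genes had a lower difference, for Erap1 5.67% and for H2-K1 14%. The median over both Tapbp probe sets put its difference at -0.49 in place of -0.60, which is short of 1.5-fold. Its second probe set alone differed by -0.37 and the one shared with Zbtb22 by -0.15. All 10 fibroblast markers were lower in the same culture, with a median of -0.50, and 5 of 6 epithelial markers were higher, with a median of 1.34, led by Epcam (7.10 against 9.78). Of the 6 pluripotency markers that reached the floor at day 6, 5 were higher and 1 lower, with a median of 1.61: Nanog was higher (7.54 against 9.87), Pou5f1 differed by 0.02 and Klf2 was lower (7.44 against 6.94). Esrrb (6.14 against 7.04) and Tdgf1 (5.84 against 8.92) reached the floor only in the Sumo2-labelled culture. Sox2, Zfp42, Tcl1 and Dppa5a lay under the floor in both cultures. The part of these markers in the class I values was not tested.

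The interferon side of the pathway showed differences of similar size at day 6. Of 10 interferon receptor and signalling genes 9 were lower, all but Socs1, with a median of -0.31 and Socs3, a feedback inhibitor, the lowest at -0.70 (9.62 against 8.92). Of 6 measured interferon-induced genes 5 were lower, led by the immunity-related GTPase gene Irgm2 (7.83 against 6.89), and Bst2 was higher (7.10 against 7.54). Among the lower ones, Ifit3 (7.02 against 6.54) and Oasl2 (6.96 against 6.59) reached the floor at day 6 on the Firefly array alone. The choice of measured genes thus favoured a lower value for both. Over all measured genes 46.3% were lower. Fcgrt (8.96 against 8.09), H2-Q10 (8.25 against 7.50) and Mr1 (7.99 against 7.38) were the lowest of the heavy chain relatives, and H2-K2 was higher (7.64 against 8.08). Peptidase and folding genes differed by 0.29 or less in either direction. None of these differences has a replicate check.

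The third comparison set the 10 day against the 38 h iPSC line, again with 1 array each. Only B2m, H2-K1, Tap1 and Tapbp reached the floor in a line. B2m was lower in the 10 day line by 0.26 on the log2 scale (11.53 against 11.27), Tap1 by 0.24 (8.48 against 8.25) and H2-K1 by 0.10 (8.64 against 8.53), and Tapbp was higher by 0.16 (9.34 against 9.49). The median was -0.17, against -0.02 over 11754 measured genes, whose differences had an SD of 0.41, and all 4 members lay within it. Tapbp did so by its brighter probe set. Its second probe set differed by 0.60 (6.58, under the floor, against 7.18) and the one shared with Zbtb22 by -0.06. The median over both Tapbp probe sets of its own was 0.38. Lower by any size were 3 of the 4 against 52.5% of genes, and 0 were 2-fold lower, against 1.03%. Psmb10 was lower by 0.46 (8.70 against 8.24) and Fcgrt higher by 0.93 (7.38 against 8.31), the latter the largest difference among the 7 heavy chain relatives with a probe set of their own that reached the floor in a line.

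**Figure D4:**
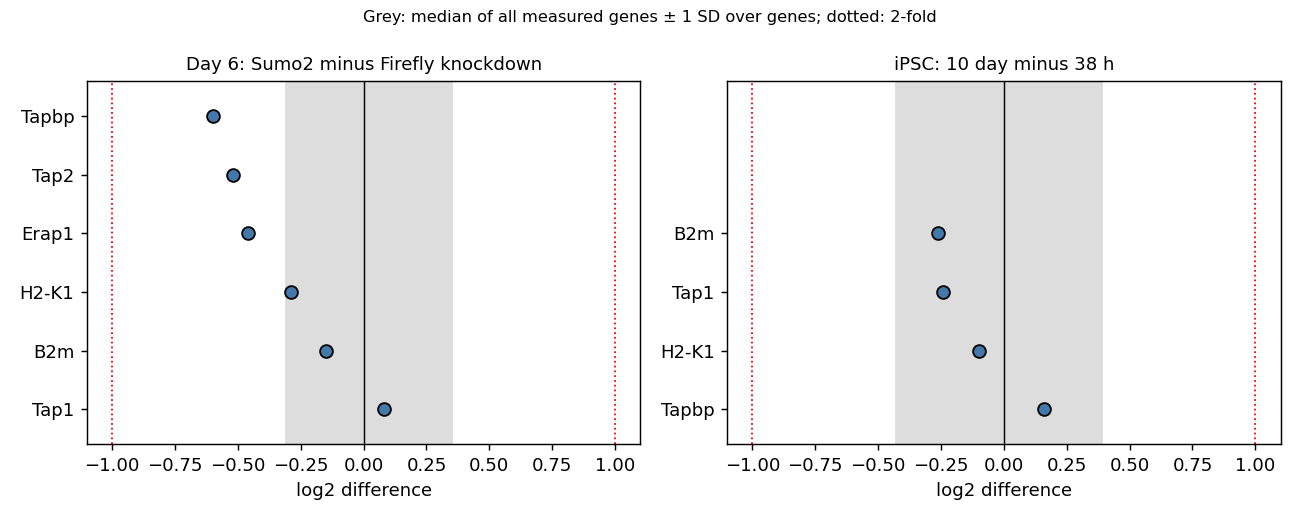
Log2 differences (horizontal axis) of the members that reached the floor (vertical axis) between the day 6 cultures (left) and between the iPSC lines (right), 1 array against 1; grey bands are the median of all measured genes plus and minus 1 SD over genes, and dotted lines mark 2-fold. At day 6 Tapbp, Tap2 and Erap1 lie left of the band as read, Tap2 with a Sumo2 value under the floor. Between the iPSC lines all 4 members lie inside the band, Tapbp by its brighter probe set. Its second probe set, at 0.60, is not drawn.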

How the data were processed

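Total RNA of 4 mouse cultures was hybridised to 1 array each. The deposited values are log2 expression per probe set, which, per the submitters' processing notes, the authors made by RMA with Affymetrix Expression Console; versions and settings are not given in the sources used here. RMA corrects background, quantile-normalises and summarises probes, so a change of total RNA cannot be seen, and it pulls folds of dim probe sets towards 1. No header names the base of the logarithm, and base 2 was taken because RMA writes it.

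Of 41345 probe sets, 23521 had 1 gene symbol and 1814 several in the platform annotation; 16010 had none listed. Of several single-symbol probe sets of a gene, the one with the highest mean was used. A gene was measured when it reached the array median of single-symbol probe sets (the floor) on at least 1 array compared. Pairs of single arrays were compared by size, with 2-fold as the rule. The iPSC and day 6 pairs were compared with limma 3.58.1 in R 4.3.3 (lmFit, eBayes with intensity trend, 2 residual degrees of freedom), adjusted by Benjamini-Hochberg over all measured genes; the script was tested on simulated data. Values below the floor are counted from it where a fold is marked at least.

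All 10 members are named, with up to 4 genes of each of 10 pathway lists (121 genes) by size of difference and markers from 7 cell type lists; further genes of these lists, such as Isg15, Mx1, Irf7 and Irf8, were named after their values were seen. The members and lists were chosen with earlier results of these data known. Alternatives covered cyclic loess, other probe set and floor rules, other moderation and each array left out. Whether the cultures had separate origins is not stated, so p-values measure only the spread between these arrays. That spread is moderated over genes, and the number of arrays limits the precision.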

Additional observations from a re-analysis of the deposited data

How the results depend on the processing

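Of 177 recomputed values none changed sign among those called, and the calls of B2m (log2 difference -1.49 to -1.24) and Erap1 (-1.66 to -0.69) held under every alternative run. Tap1 ran from -1.0 to -0.69 and lost its call without the Firefly array (adjusted p = 0.0563) or the Sumo2 array (0.0548). The median difference of the members between iPSC and day 6 was -1.0 after cyclic loess, which left Tap2 out, -0.60 with no floor (9 genes), -0.81 with the floor at the 60th percentile (5 genes) and -0.56 with values below the floor set to it. With single arrays left out it ran from -0.82 to -0.60, and 2 or 3 members fell. With values below the floor set to it, 1 member, B2m, fell at least 2-fold in place of 2. The median at day 6 was -0.22 with values set to the floor. A 1.5-fold rule gave 1 member lower in place of 0, Tapbp by its brighter probe set alone. Without any floor 4 of 9 members fell, Psmb8 being the fourth, beside 2911 of 22180 genes. No paired analysis was possible because each group has 1 array and the labels carry no replicate numbers. The medians and counts rest on 4 to 6 genes, and 4 members lay under the floor on every array.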

Other observations

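Probe sets that list several class I heavy chain genes gave further readings, for which no gene can be named. The one for H2-T22 and H2-T9 read 7.91 in the Firefly culture, 7.27 in the culture labelled Sumo2 knockdown, 6.75 in the 38 h line and 5.35 in the 10 day line, the last under the floor. The brighter of the probe sets for H2-Q7, H2-Q8 and H2-Q9 read 9.22, 8.97, 9.04 and 8.91 in that order, a span like that of H2-K1, and the other 4 such probe sets, that of H2-D1 and H2-Q2 among them, lay under the floor on all arrays.

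The class II gene H2-Ab1 read 6.81, 6.50 and 7.0 in the Firefly, Sumo2 and 38 h cultures and 8.52 in the 10 day line. The T cell receptor component gene Cd3e read 6.37, 6.74, 7.34 and 8.81, so the same line was the highest. H2-Aa, which encodes the partner chain of H2-Ab1, lay under the floor on all arrays, at 5.08 to 5.73. These are single arrays, and H2-Ab1 and Cd3e were singled out after their values had been seen.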
